A study of Arabidopsis thaliana with 9 samples.

Results

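The miR172 family of Arabidopsis thaliana was followed through small RNA libraries from leaves of se-2, chr2 and WT plants. Its members were all entries of the deposited count tables named ath-miR172 followed by a letter, which gave 8 of 427 miRNA entries: ath-miR172a, ath-miR172b-3p, ath-miR172b-5p, ath-miR172c, ath-miR172d-3p, ath-miR172d-5p, ath-miR172e-3p and ath-miR172e-5p. The leaves came from plants 3 weeks old, and each genotype had 3 libraries of gel-purified small RNA. The label se-2 names a mutant of SERRATE, a zinc finger protein of the microprocessor, and chr2 a mutant of CHR2, also called BRAHMA, the ATPase of a SWI/SNF chromatin remodeller. The series title frames the study as a test of how CHR2 acts on miRNA precursors through SE. The labels give the genotype by these names only, with no further allele or treatment, and nothing says whether the 3 libraries of a genotype came from separate plants or pools, so the tests measure only the spread between these libraries.

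miR172 is a conserved plant miRNA that represses AP2-like transcription factors, a group that delays flowering and the change from juvenile to adult leaves and, in the flower, sets organ identity. It acts on its targets by blocking translation and by cleavage of the transcript. In the shoot it stands opposite to miR156 and miR157: these keep leaves juvenile by repressing SPL factors, and SPL factors in turn raise transcription of MIR172 genes as the plant ages. The 3p arm of the hairpin is the strand loaded into the silencing complex, and the 5p arm is its passenger strand.

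The mature sequences show why the entries cannot all be counted apart, and they are given 5′ to 3′ with bases 2 to 8, the seed, in capitals (RefSeq annotation of TAIR10.1).
ath-miR172a: aGAAUCUUgaugaugcugcau
ath-miR172b-3p: aGAAUCUUgaugaugcugcau
ath-miR172c: aGAAUCUUgaugaugcugcag
ath-miR172d-3p: aGAAUCUUgaugaugcugcag
ath-miR172e-3p: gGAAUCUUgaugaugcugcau
ath-miR172b-5p: gCAGCACCauuaagauucac
ath-miR172e-5p: gCAGCACCauuaagauucac
ath-miR172d-5p: gCAACAUCuucaagauucaga
The 5 entries of the 3p arm shared the seed GAAUCUU and fell into 3 mature sequences. With positions counted from 1 at the 5′ end of miR172a, miR172c and miR172d-3p carried U21G, and miR172e-3p carried A1G. miR172b-5p and miR172e-5p were the same 20-nt sequence.

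The 5 genes lie apart in the genome, and no annotated gene overlapped any of their precursors. MIR172a (AT2G28056) is at chr2:11942914-11943015 on the minus strand, MIR172b (AT5G04275) at chr5:1188207-1188301 on the minus strand, MIR172c (AT3G11435) at chr3:3599776-3599908 on the minus strand, MIR172d (AT3G55512) at chr3:20587904-20588027 on the plus strand and MIR172e (AT5G59505) at chr5:23988472-23988596 on the plus strand. Among protein-coding genes, MIR172e had the nearest neighbours, AT5G59500 at 1089 bases and AT5G59510 at 1158 bases. The precursors of MIR172b and MIR172e are shown, with the arms in capitals, because their entries of both arms had counts. MIR172a and MIR172c had no 5p entry, and the 5p entries of MIR172b and MIR172e share 1 sequence.
MIR172b: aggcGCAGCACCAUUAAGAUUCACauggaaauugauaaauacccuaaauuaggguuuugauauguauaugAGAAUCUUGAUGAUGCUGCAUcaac
MIR172e: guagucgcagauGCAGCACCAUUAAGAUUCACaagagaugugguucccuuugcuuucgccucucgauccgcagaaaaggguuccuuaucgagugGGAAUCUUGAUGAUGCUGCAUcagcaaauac
In the minimum free energy folds predicted with RNAfold, 18 to 19 of the 21 bases of the 3p arm were paired in each of the 5 precursors. The predicted energies ranged from -54.9 kcal/mol for MIR172c to -35.5 kcal/mol for MIR172b, the shortest precursor at 95 nt.

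The AP2-like targets show where the 3 mature sequences differ in pairing. Each site below lies in full within the coding sequence and is given 5′ to 3′ with the bases that pair with miR172a in capitals.
AP2: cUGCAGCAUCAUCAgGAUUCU
TOE1: caGCAGCAUCAUCAgGAUUCU
TOE2: AUGCAGCAUCAUCAgGAUUCU
TOE3: ugGCAGCAUCAUCAgGAUUCU
SMZ: uUGCAGCAUCAUCAgGAUUCc
SNZ: uUGuAGCAUCAUCAgGAUUCc
AP2, a floral homeotic gene, holds its site at chr4:17403019-17403039 on the plus strand in exon 10 of 10, and TOE2 at chr5:24210889-24210909 on the plus strand in exon 9 of 10. miR172a paired with 20 of the 21 bases in TOE2, 19 in AP2, 18 in TOE1, TOE3 and SMZ, and 17 in SNZ. The last base of miR172c added a pair in AP2 (20) and TOE1 (19), and it removed a pair in TOE2 (19). The first base of miR172e-3p added a pair in SMZ (19) and SNZ (18). It turned a counted pair into an uncounted G:U pair in AP2 (18), TOE1 (17), TOE2 (19) and TOE3 (17). Position 7 of the miRNA stood across from a G in all 6 sites, as a G:U pair that was not counted. The G:U pairs of position 18 in SNZ, and of the last base of miR172c in TOE3, SMZ and SNZ, were not counted either. These are letters compared in the reference, and the libraries hold no target RNA.

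The libraries differed in size by genotype, which bears on every comparison between them. The summed miRNA counts were 130482 to 195415 in se-2, 637283 to 908635 in chr2 and 1280294 to 1588242 in WT. These totals cover miRNA entries only, so depth and miRNA content cannot be told apart in them. Levels were therefore taken as CPM, the count per 1000000 counts of the library's effective size, with TMM scaling, a trimmed mean of the ratios between libraries weighted towards abundant entries, and the result under a second scaling is given with each comparison. That second scaling divides by the summed counts of the 115 late entries, those with a family number of 5000 or more. The late entries held 2.44% to 3.25% of all counts in se-2, 0.607% to 0.642% in chr2 and 0.411% to 0.522% in WT. The scaling assumes that their sum stayed level, which cannot be checked in these libraries. Their proportions did not stay level between genotypes. miR8175, 1 of them, had 1307 to 1665 counts in WT libraries, beside 5023 to 5540 for the other late entries. In chr2 it had 1914 to 2869 beside 2179 to 2894, and in se-2 1396 to 2032 beside 2214 to 3204.

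Of the 8 entries, 7 had counts and 5, those of the 3p arm, passed the filter on low counts among the 270 entries tested. ath-miR172a was the most abundant, at rank 33 in se-2, rank 49 in chr2 and rank 45 in WT by mean CPM among the 270. The counts of ath-miR172b-3p followed those of ath-miR172a to within 0 to 6 counts in every library, and those of ath-miR172d-3p and ath-miR172c differed by at most 3. A read of a shared sequence was thus apparently counted for each copy, and each pair is 1 measurement of a sequence that could come from either gene.

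The sequence shared by miR172a and miR172b was the bulk of the family in every library. It made up 86.0% to 94.3% of the counts of the 3 distinct 3p sequences in se-2, 92.1% to 95.3% in chr2 and 92.2% to 93.1% in WT. The sequence of miR172c and miR172d made up 13.4%, 5.48% and 6.40% in the 3 se-2 libraries, 5.71%, 4.19% and 6.45% in the chr2 libraries and 6.44%, 7.23% and 6.30% in the WT libraries. se-2 replicate 1 stood above the other 8 libraries, at 48 of 357 counts, with an exact Clopper-Pearson 95% interval of 10.1% to 17.4%, which covers counting error only. The highest upper limit among the other 8 libraries was 8.41%, in WT replicate 2. The other se-2 libraries lay within or below the WT range.

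In se-2, the 2 abundant miR172 sequences took a larger part of the miRNA counts than in WT. ath-miR172a, which pairs best with TOE2 among the 6 sites, had 2237, 4300 and 4165 CPM in se-2 libraries, against 2049, 1691 and 1816 CPM in WT libraries. All se-2 libraries were above all WT libraries, and se-2 replicate 1 lay close to the highest WT library. The se-2 libraries averaged 3568 ± 1154 CPM and the WT libraries 1852 ± 182 CPM (SD, n = 3 per genotype), a log2 fold change of 0.95 (SE 0.24; edgeR quasi-likelihood test with Benjamini-Hochberg adjustment over 270 entries, adjusted p = 0.000921). ath-miR172b-3p, the same sequence, gave a log2 fold change of 0.94 (edgeR adjusted p = 0.00104).

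ath-miR172c had 357, 250 and 286 CPM in se-2 libraries, against 139.6, 131.7 and 124.0 CPM in WT libraries. The groups did not overlap, and se-2 replicate 1, the lowest se-2 library for miR172a, was the highest for miR172c. The se-2 libraries averaged 298 ± 54.5 CPM and the WT libraries 132 ± 7.83 CPM (SD, n = 3 per genotype), a log2 fold change of 1.17 (SE 0.23; edgeR adjusted p = 4.25e-05). ath-miR172d-3p gave 1.14 on the log2 scale (edgeR adjusted p = 5.39e-05).

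ath-miR172e-3p, the form that opens with G, was rare in all genotypes. It had 2, 2 and 4 counts in se-2 libraries, against 14, 13 and 39 counts in WT libraries, which came to 15.6 ± 4.49 CPM for se-2 and 16.5 ± 9.90 CPM for WT (SD, n = 3 per genotype). The groups overlapped in CPM, and WT replicate 3 was more than 2 times as high as the other WT libraries. Its log2 fold change was -0.09 (SE 0.63; edgeR adjusted p = 0.903), and an interval of 2 SE either side ran from -1.34 to 1.17, which contains the fold changes found for miR172a and miR172c. Without WT replicate 3 the value was 0.49 (edgeR adjusted p = 0.499).

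Counted over the family, 4 of the 5 tested entries were higher in se-2 and 0 were lower by edgeR, where 0 were lower also at an unadjusted p under 0.05 and by DESeq2 and limma-voom. Among all 270 tested entries 42.2% were higher and 30.4% lower. The 4 calls rest on 2 sequences. The median log2 fold change was 0.95 over the 5 tested members and 0.11 over all tested entries, and 99 of the 270 entries had a larger log2 fold change than miR172a. With DESeq2's own test the calls of miR172a (log2 0.58, adjusted p = 0.0616) and miR172b-3p were lost and those of miR172c and miR172d-3p stayed.

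The direction of this difference depended on the scaling between libraries. Relative to the late entries, ath-miR172a stood at 72.3, 165 and 171 counts per 1000 late-entry counts in se-2, against 379, 305 and 389 in WT. ath-miR172c stood at 11.5, 9.59 and 11.8 in se-2, against 25.8, 23.7 and 26.5 in WT. Every se-2 library was then below every WT library for both sequences. Under this scaling all 5 tested members were lower in se-2 by edgeR, with log2 fold changes of -1.39 for miR172a, -1.21 for miR172c and -2.43 for miR172e-3p, while 70.7% of all tested entries were lower and 5.93% higher.

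Part of each fold change is a shift of the whole table. The median log2 fold change of all tested entries in se-2 against WT was 0.11 with TMM scaling and -2.26 with late-entry scaling. Measured from the TMM median, miR172a lay 0.84 higher, miR172c 1.06 higher and miR172e-3p at -0.20 on the log2 scale. A change of scaling moves all entries of a library alike, so these distances are nearly fixed across scalings by construction and are given as a description only.

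**Figure D1:**
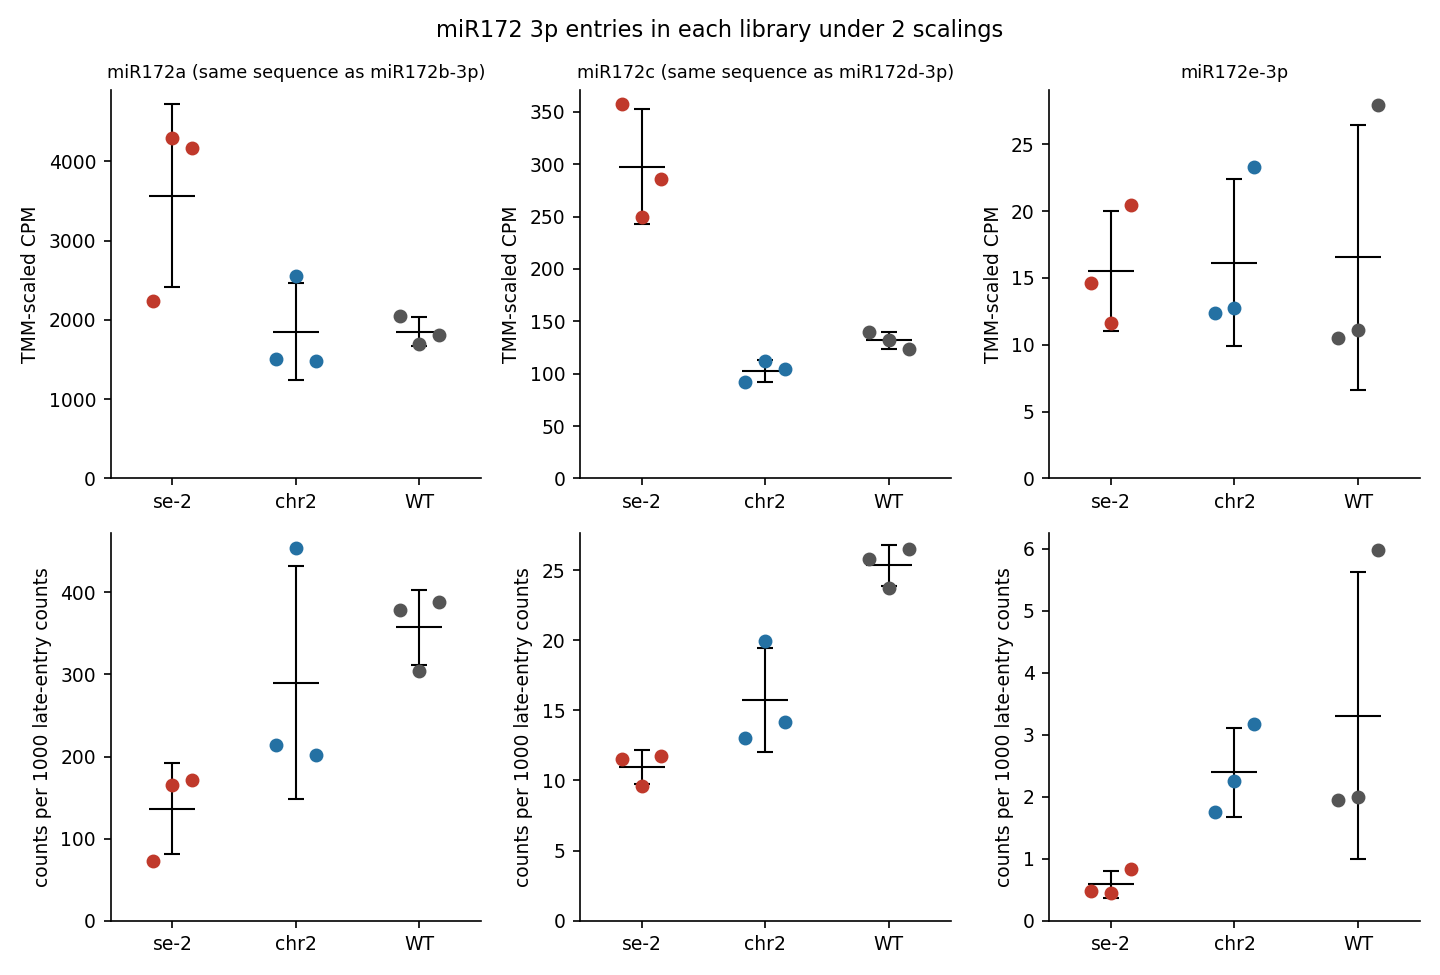
Values of the 3 distinct miR172 3p sequences in each library (points), with the mean and SD of the 3 libraries (bars), for se-2, chr2 and WT; the upper row gives TMM-scaled CPM and the lower row counts per 1000 late-entry counts, both on linear axes from 0. For miR172a the se-2 libraries lie above all WT libraries in the upper row, at 2237 to 4300 CPM, and below them in the lower row.

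In chr2, no miR172 entry was called different from WT. ath-miR172a had 1505, 2558 and 1486 CPM in chr2 libraries, against 2049, 1691 and 1816 CPM in WT libraries. chr2 replicate 2 was above all WT libraries and the other chr2 libraries were below them. Its mean was 1849 ± 613 CPM in chr2 and 1852 ± 182 CPM in WT (SD, n = 3 each), with a log2 fold change of 0.00 (SE 0.24; edgeR adjusted p = 1) and an interval of 2 SE of 0.475 on either side. The median of all tested entries in chr2 against WT was -0.15 with TMM scaling.

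ath-miR172c had 91.9, 112 and 104 CPM in chr2 libraries, against 139.6, 131.7 and 124.0 CPM in WT libraries, and here the groups did not overlap. The chr2 libraries averaged 103 ± 10.4 CPM and the WT libraries 132 ± 7.83 CPM (SD, n = 3 per genotype), a log2 fold change of -0.35 (SE 0.22) that did not pass the test (edgeR adjusted p = 0.228). ath-miR172d-3p was at -0.36 (edgeR adjusted p = 0.208). ath-miR172e-3p had 9, 13 and 13 counts in chr2 libraries, against 14, 13 and 39 in WT libraries, with a log2 fold change of -0.13 (SE 0.39; edgeR adjusted p = 0.847).

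Of the 5 tested members 0 were called in either direction by edgeR, 0 also at an unadjusted p under 0.05, and 0 by DESeq2 and limma-voom, where 10.4% of all tested entries were higher in chr2 and 19.6% lower by edgeR. With late-entry scaling, miR172c (log2 -0.68, edgeR adjusted p = 0.0296) and miR172d-3p (log2 -0.69, edgeR adjusted p = 0.0272) were called lower in chr2, beside 38.9% of all tested entries lower and 5.19% higher. Leaving miR8175, an abundant late entry, out of that scaling brought miR172c to -0.07 (edgeR adjusted p = 0.884), so the call rested on that entry. miR8175 had 1914 to 2869 counts in chr2 libraries and 1307 to 1665 counts in the deeper WT libraries.

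The mutants were also set against each other, with the same se-2 and chr2 libraries as above. ath-miR172a averaged 1849 ± 613 CPM in chr2 and 3568 ± 1154 CPM in se-2 (SD, n = 3 each), a log2 fold change of -0.95 (SE 0.24; edgeR adjusted p = 0.000915), and the groups overlapped because chr2 replicate 2 was above se-2 replicate 1. This call was lost without chr2 replicate 1 (-0.54, edgeR adjusted p = 0.0853), without chr2 replicate 3 (-0.51, edgeR adjusted p = 0.0686), with DESeq2 size factors in the edgeR fit (-0.38, edgeR adjusted p = 0.154) and with DESeq2's own test (-0.38, adjusted p = 0.236). ath-miR172c averaged 103 ± 10.4 CPM in chr2 and 298 ± 54.5 CPM in se-2 (SD, n = 3 each), with no overlap and a log2 fold change of -1.52 (SE 0.24; edgeR adjusted p = 1.68e-06). ath-miR172e-3p averaged 16.1 ± 6.23 CPM in chr2 and 15.6 ± 4.49 CPM in se-2 (SD, n = 3 each), and its fold change did not pass the test (edgeR adjusted p = 0.962).

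In this comparison 4 of the 5 tested members were lower in chr2 and 0 higher by edgeR, 0 higher also at an unadjusted p under 0.05 and by DESeq2 and limma-voom, beside 47.4% of all tested entries lower and 33.0% higher. With late-entry scaling the direction turned: 3 members, miR172a (log2 1.09), miR172b-3p (1.097) and miR172e-3p (1.95), were called higher in chr2 and 0 lower, beside 59.3% of all tested entries higher and 11.5% lower. The median of all tested entries in chr2 against se-2 was itself -0.51 with TMM scaling and 1.48 with late-entry scaling. Measured from the TMM median, miR172a was at -0.44 and miR172c at -1.01 on the log2 scale.

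**Figure D2:**
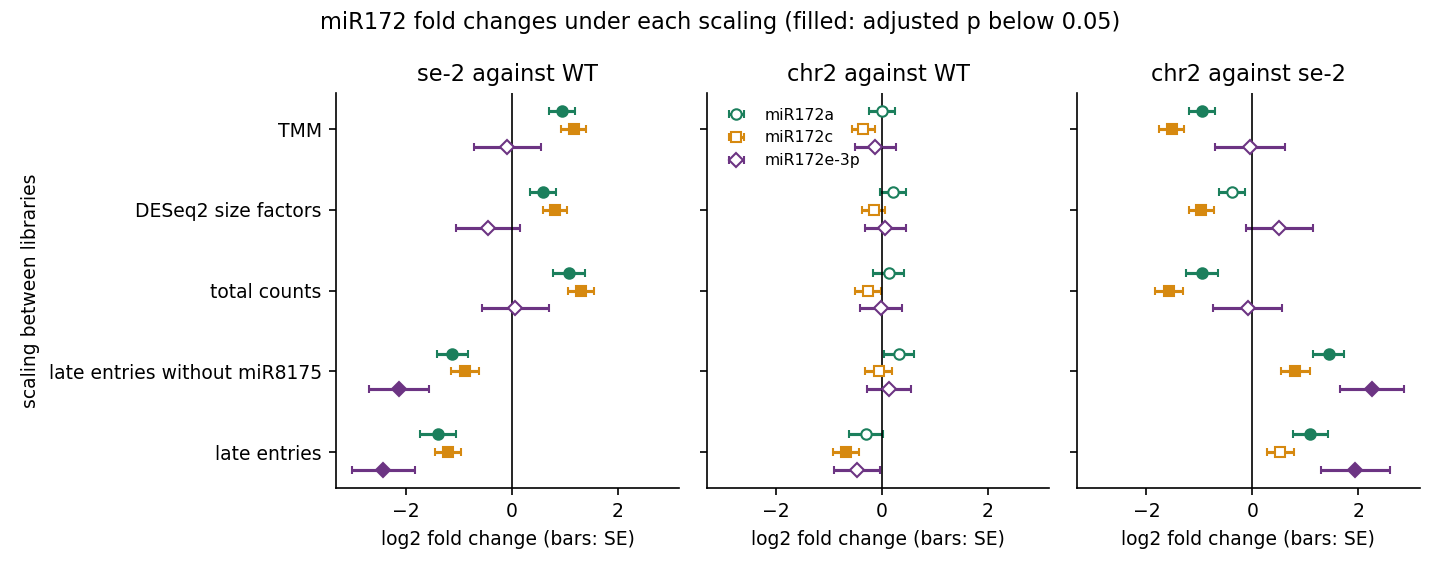
Log2 fold changes of miR172a (circles), miR172c (squares) and miR172e-3p (diamonds) in 3 comparisons under 5 ways of scaling the libraries. Bars are 1 SE, derived from the F value of the edgeR test. Filled symbols have an adjusted p below 0.05. miR172a and miR172c lie right of 0 in se-2 against WT under the first 3 scalings and left of 0 under both late-entry scalings.

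The family as a whole can be read as a share of all miRNA counts. The 8 entries summed to 0.542%, 0.927% and 0.892% of counts in se-2, to 0.276%, 0.603% and 0.282% in chr2 and to 0.425%, 0.335% and 0.344% in WT. Every se-2 library was above every WT library, while the chr2 libraries lay on both sides of WT. With each mature sequence counted once, in the family and in the total, the shares were 0.847% to 1.44% in se-2, 0.306% to 0.630% in chr2 and 0.356% to 0.442% in WT.

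The passenger strands were rare, and they were read against the 3p arm of the same library, which needs no scaling between libraries. ath-miR172b-5p had 0, 0 and 1 counts in se-2 libraries, 3, 7 and 6 counts in chr2 libraries and 11, 11 and 8 counts in WT libraries. ath-miR172e-5p had 0 counts in all 3 se-2 libraries, 2, 3 and 5 counts in chr2 libraries and 6, 5 and 7 counts in WT libraries. ath-miR172d-5p had 0 counts in all 9 libraries. The miR172b and miR172e passenger entries have 1 sequence, yet their counts summed over the WT libraries were 30 for miR172b-5p and 18 for miR172e-5p, while those of the 3p copies were 7241 for miR172a and 7231 for miR172b-3p. How reads of the shared 5p sequence were assigned is not given in the sources used here, so either 5p entry may hold reads of the other gene.

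For miR172e, whose 5p count may also hold reads of MIR172b, the 5p arm made up 0 of 2, 0 of 2 and 0 of 4 counts of both arms in se-2 libraries, 18.2%, 18.8% and 27.8% in chr2 libraries and 30.0%, 27.8% and 15.2% in WT libraries. The exact two-sided permutation test gave p = 0.1 for se-2 against WT, the smallest p that 3 against 3 libraries allow, and 0.15 after adjustment over 6 arm tests. With 8 counts in all, a 5p share of up to 36.9% in se-2 lay within the exact 95% interval, above the pooled 21.4% of WT (interval 13.2% to 31.7%), so a lower share was not detectable at this depth. For chr2 against WT the exact permutation p was 0.9 (1 after adjustment).

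For miR172b, where the 3p count also holds reads of MIR172a, the depth was larger. The 5p arm made up 0%, 0% and 0.123% of the counts of both arms in se-2 libraries, 0.273%, 0.267% and 0.720% in chr2 libraries and 0.402%, 0.554% and 0.315% in WT libraries. All se-2 libraries were below all WT libraries, again at the smallest exact permutation p of 0.1 (0.15 adjusted), and the chr2 and WT libraries overlapped (exact permutation p = 1). Summed over libraries, the share was 1 of 1852 counts in se-2, or 0.054% with an exact 95% interval of 0.0014% to 0.30%, against 0.413% in WT with an interval of 0.279% to 0.589%. These intervals and the single libraries' intervals cover counting error only. Among 55 other hairpins with at least 10 counts of both arms in every library, the less abundant arm had a lower share in se-2 than in WT in 31 and a lower share in chr2 than in WT in 23.

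**Figure D3:**
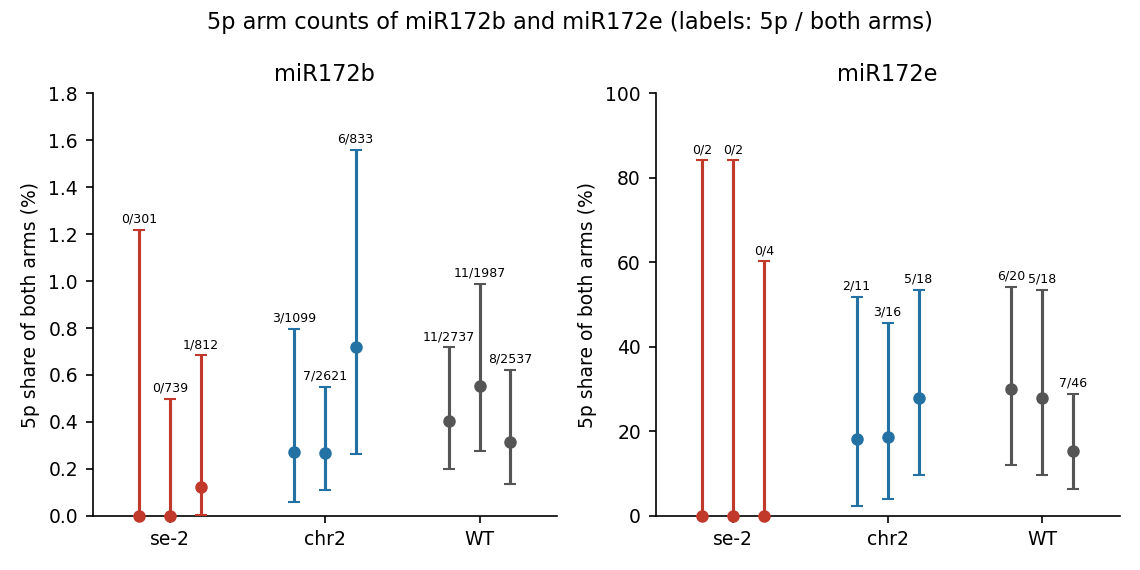
Share of the 5p arm in the counts of both arms of miR172b and miR172e in each library, in percent, as points, with exact 95% binomial intervals as vertical lines and the counts (5p over both arms) above each line, for se-2, chr2 and WT. The single 5p count among all se-2 libraries is that of miR172b-5p in replicate 3, and the miR172e share is 0% in all 3 se-2 libraries, with wide intervals on 2 to 4 counts.

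Most called entries of miR156 and miR157, the juvenile miRNAs upstream of miR172, were lower in se-2, under TMM and late-entry scaling alike. Of their 22 entries 17 were tested by edgeR, of which 1 was higher and 9 lower in se-2 than in WT (median log2 -0.92), and 7 were higher and 2 lower in chr2 than in WT (median log2 0.32). Some of these entries share a mature sequence, as in miR172, so the calls are not all separate measurements. The shares called over the whole table were 42.2% higher and 30.4% lower for se-2, and 10.4% higher and 19.6% lower for chr2. With late-entry scaling the counts were 0 higher and 17 lower in se-2, where 70.7% of all tested entries were lower, and 5 higher and 3 lower in chr2, where 5.19% were higher and 38.9% lower. ath-miR157c-5p, the most abundant miR157 entry, averaged 7005 ± 978 CPM over the se-2 libraries and 17790 ± 1101 CPM over the WT libraries (SD, n = 3 per genotype; log2 -1.35, SE 0.19, edgeR adjusted p = 2.45e-07). In chr2 it averaged 33400 ± 5557 CPM, a log2 fold change of 0.91 over WT (SE 0.18; edgeR adjusted p = 0.000294). Both directions were the same under all 5 scalings. ath-miR156d-5p, the most abundant miR156 entry, passed the test in neither mutant, at -0.33 in se-2 (edgeR adjusted p = 0.118) and -0.12 in chr2 (edgeR adjusted p = 0.685), though with DESeq2 size factors it was called lower in se-2 (-0.68, edgeR adjusted p = 0.00162) and with late-entry scaling in both mutants. The late-entry call in chr2 (-0.48, edgeR adjusted p = 0.0356) was lost without miR8175 (0.135, edgeR adjusted p = 0.642). ath-miR157c-5p and ath-miR156d-5p each have the mature sequence of another entry, so their counts may hold reads of other genes.

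The ratio of miR172a to each of these entries within a library, which needs no scaling, was higher in all se-2 libraries than in any WT library. A ratio moves with both of its parts. With TMM scaling miR157c-5p was itself lower in se-2 than in WT (log2 -1.345), beside 0.948 for miR172a, so the ratio does not show a rise of miR172a alone. For every 100 counts of miR157c-5p there were 27.5, 66.5 and 64.9 counts of miR172a in se-2 libraries, 5.03, 8.39 and 3.73 in chr2 libraries and 11.6, 8.92 and 10.8 in WT libraries. No library of one genotype overlapped those of another. The mean was 53.0 ± 22.1 in se-2, 5.72 ± 2.40 in chr2 and 10.4 ± 1.38 in WT (SD, n = 3 each), and each of the 3 comparisons reached the smallest exact permutation p of 0.1, or 0.15 after adjustment over 6 ratio tests.

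Against miR156d-5p the chr2 difference was not seen. There were 18.0, 40.0 and 44.5 counts of miR172a for every 100 of miR156d-5p in se-2 libraries, 13.8, 22.3 and 9.70 in chr2 libraries and 15.3, 11.6 and 13.9 in WT libraries. All se-2 libraries were above all WT libraries (exact permutation p = 0.1, 0.15 adjusted), and the chr2 libraries lay on both sides of WT (exact permutation p = 0.9). In chr2, miR157c-5p was called higher than in WT and miR172a was not called.

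**Figure D4:**
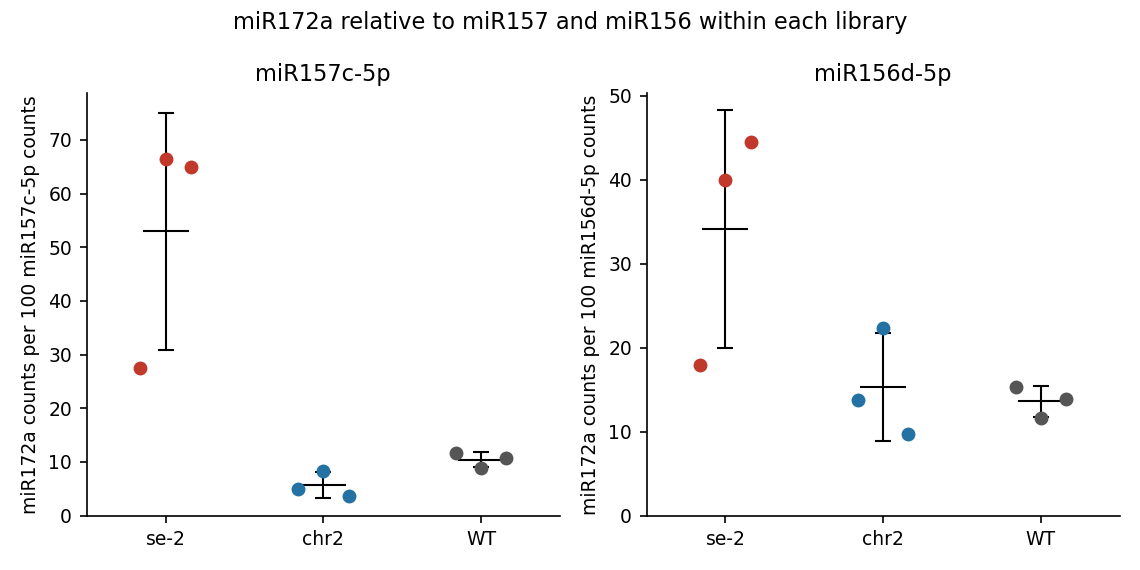
Counts of miR172a per 100 counts of miR157c-5p and per 100 counts of miR156d-5p in each library (points) with the mean and SD of 3 libraries (bars), for se-2, chr2 and WT, on linear axes from 0. In both panels all se-2 libraries lie above all WT libraries, and the chr2 libraries lie below WT only in the miR157c-5p panel.

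Other miRNA families known for a part in flowering time or vegetative growth (miR159, miR319, miR169 and miR399) were called in both directions. Of 30 tested entries among 32, 7 were higher and 6 lower in se-2 than in WT, and 2 were higher and 14 lower in chr2 than in WT by edgeR, beside 42.2% higher and 30.4% lower in se-2 and 10.4% higher and 19.6% lower in chr2 over all tested entries. With late-entry scaling 3 were higher and 27 lower in se-2 and 2 higher and 16 lower in chr2, beside 70.7% lower in se-2 and 38.9% lower in chr2 over all tested entries. Outside the family, the entries whose log2 CPM followed miR172a most closely over the 9 libraries were ath-miR407 (Pearson r = 0.957), ath-miR860 (r = 0.916) and ath-miR5645c (r = 0.882). In se-2, chr2 and WT, miR407 averaged 34.22, 5.96 and 5.61 CPM and miR5645c 38.35, 6.505 and 4.815 CPM. By its family number miR5645c is also a late entry, so its counts are part of the sum used for the second scaling. miR860 averaged 203.5, 68.97 and 89.71 CPM. All 3 were thus much rarer than miR172a and highest in se-2. Within the family r was 0.713 for miR172c and -0.105 for miR172e-3p. These values describe 9 libraries that share 3 genotypes and 1 scaling, and the 3 outside entries were picked for the likeness.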

How the data were processed

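The 9 libraries hold small RNA of 19 to 24 nt from leaves. The authors deposited whole-number counts per mature miRNA entry, with no normalization. Per the submitters' processing notes, Bowtie 1.1.2 and the TAIR10 genome were used; how reads were counted, on which miRNA annotation, and what was done with multiply mapping reads is not given in the sources used here. All 427 entry names matched the RefSeq annotation of TAIR10.1, from which sequences and coordinates were read; folds were predicted with ViennaRNA 2.7.2.

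Rows with identical counts were kept once (368 profiles with counts), filtered by edgeR's filterByExpr (270 tested), scaled by TMM and fitted with all 9 libraries and genotype as the only term (edgeR 4.0.16, robust quasi-likelihood, R 4.3.3). A call is an adjusted p below 0.05. The SE given with an edgeR log2 fold change is its absolute value divided by the square root of the test's F value. The scripts were tested on simulated counts. Shares and ratios within a library were compared by exact two-sided permutation tests, and intervals are exact Clopper-Pearson at 95%. Alternatives were DESeq2 1.42.0, limma-voom (limma 3.58.1), other scalings, no filter, a replicate block and leaving out libraries. No library was a copy of another of its genotype: between replicates, chi-square over its degrees of freedom was 2.85 to 95.5. The text names all 8 members, the most abundant miR156 and miR157 entries, the 3 entries most like miR172a, and miR8175. The members and lists were chosen with earlier results of these data known, and the ratios to miR156 and miR157 and the shares of the 3p sequences were added after the counts were seen.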

Additional observations from a re-analysis of the deposited data

How the results depend on the processing

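The scaling between libraries decided the direction in se-2. Relative to late entries, the se-2 against WT log2 fold changes were -1.39 (miR172a), -1.40 (miR172b-3p), -1.21 (miR172c), -1.23 (miR172d-3p) and -2.43 (miR172e-3p), and without miR8175 they were -1.12, -1.13, -0.88, -0.90 and -2.13. 0 members were then higher and 5 lower, while over all entries 16 were higher and 191 lower, or 27 and 182 without miR8175. In chr2 against se-2 the values were 1.09, 1.097, 0.52, 0.53 and 1.95, or 1.44, 1.45, 0.81, 0.82 and 2.26 without miR8175, with 3 or 5 members higher, 0 lower, and 160 or 172 entries higher and 31 or 22 lower. In chr2 against WT, 2 members were lower relative to late entries; 14 entries were higher and 105 lower, or 43 and 28 without miR8175. The summed family count in se-2 over WT (log2 1.097 per total count) was 1.68 with 1 entry per sequence, -1.39 per late count and -1.12 without miR8175, and chr2 over se-2 (log2 -1.02) was 1.06 per late count and 1.41 without miR8175.

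In se-2 against WT, 2 members were called higher with DESeq2 and 2 with 1 entry per sequence. Over all entries 95 were then higher and 112 lower with DESeq2, and 80 and 83 with 1 entry per sequence. In chr2 against se-2, 2 members were called with DESeq2 size factors, DESeq2 or 1 entry per sequence, and leaving out libraries gave 2 to 4. With DESeq2 size factors 114 of all entries were higher and 102 lower in that comparison. With 1 entry per sequence, miR172b-3p and miR172d-3p were not in the fit. The 2 calls there are miR172a and miR172c, so no sequence lost its call. Over all entries in chr2 against WT, 46 were higher with DESeq2 size factors, and lower were 35 with total counts, 31 with DESeq2, 35 with identical rows all kept, 32 with 1 entry per sequence, 34 with 6 libraries and 29 to 53 without single libraries. With 1 entry per sequence 85 were lower in chr2 against se-2.

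Most other changes of sign were in values near 0. In chr2 against WT, miR172a (0.00) was at 0.21 with DESeq2 size factors, 0.13 with total counts, 0.32 without miR8175, 0.20 with DESeq2, 0.17 with no filter, 0.19 with identical rows, 0.16 with 1 entry per sequence, 0.26 with 6 libraries and -0.17 to 0.36 without single libraries. miR172b-3p was at -0.30 relative to late entries, -0.037 with limma-voom, -0.059 with the replicate block and -0.17 to 0.36 without single libraries. miR172e-3p was at 0.065, 0.13, 0.097, 0.004, 0.028, 0.009, 0.042, 0.024 and 0.11 with DESeq2 size factors, without miR8175, with DESeq2, limma-voom, no filter, the replicate block, identical rows, 1 entry per sequence and 6 libraries, and at -0.33 to 0.68 without single libraries. In chr2 against se-2 it was at 0.51 with DESeq2 size factors, 0.54 with DESeq2, 0.017 with no filter, 0.11 with the replicate block, 0.081 with identical rows, 0.35 with 1 entry per sequence and -0.086 to 0.345 without single libraries. In se-2 against WT it was at 0.065 with total counts, 0.24 with limma-voom, 0.011 with no filter and -0.38 to 0.49 without single libraries. miR156d-5p in chr2 against WT was at 0.058 with DESeq2 size factors and with DESeq2, 0.135 without miR8175, 0.005 with no filter, 0.041 with identical rows, 0.102 with 6 libraries and -0.127 to 0.157 without single libraries. Without single libraries, the 5p share in chr2 minus that in WT was -0.154 to 0.073 percentage points for miR172b and -7.32 to 0.072 for miR172e, and miR172a per 100 miR156d-5p differed by -1.86 to 4.45. The cause of these changes was not tested.

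The labels do not say that replicate numbers pair the libraries. Deviations from the genotype means of log2 CPM correlated at -0.207 to 0.084 between same-numbered libraries of different genotypes. Between differently numbered libraries the same correlations were -0.191 to 0.293. No pairing by number was thus seen, but with 3 libraries per genotype these values cannot decide the point. With the replicate block, 4 members, which share their sequences in pairs, were higher in se-2 than in WT (miR172a 0.89). Over all entries 108 were higher and 78 lower in that comparison. The block also gave 4 members lower in chr2 than in se-2, where the median log2 fold change of all tested entries was -0.51. Absolute levels cannot be read from tables of miRNA counts alone. The 5p share of miR172e in se-2 was limited by depth, with 0 counts of the 5p arm and 8 of the 3p arm. That of miR172b in se-2 rested on 1 count of the 5p arm and 1851 of the 3p arm.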
